A study of Homo sapiens with 23 samples.

Results

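TCF7L2, TCF7L1 and LEF1 were followed through 12 RNA-seq libraries of human thalamus organoids (ThOs). These 3 genes were taken by name from tables that list 9497 genes, and all 3 were listed in every library, as was their relative TCF7. The organoids were grown from the H1 human embryonic stem cell line, either unedited (WT), with c-JUN knocked out by CRISPR/Cas9 (KO), or with c-JUN put back into the knockout from a doxycycline-induced tet-on construct (OE). The OE libraries were placed by their titles, while their genotype label reads as the knockout. Each genotype was sampled at day 25 and day 30, with 2 libraries in each of the 6 groups. Each library was taken as a pool of 3 organoids, although the RNA-seq methods of the study give a pool size for cerebral organoids only. All organoids received the same thalamus patterning with BMP7 and the MEK inhibitor PD325901. The study made more than one knockout clone, and the labels do not say which clone gave the libraries. Whether WT and KO organoids also received doxycycline was not stated. Nothing says that the 2 libraries of a group came from separate cultures, so the p-values below measure only the spread between these libraries, which may be technical.

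TCF/LEF proteins are the DNA-binding partners of beta-catenin at the end of the canonical Wnt pathway. They share a high mobility group box that binds a short core motif, recruit TLE corepressors when beta-catenin is scarce, and activate the same genes when beta-catenin accumulates. TCF7L2 is a standard marker of the caudal thalamus and the habenula, where it shapes the identity of postmitotic neurons in the mouse. TCF7L1 acts mainly as a repressor in stem and progenitor cells, and LEF1 mainly as an activator that is itself a common Wnt target. c-JUN belongs to the AP-1 family of dimeric transcription factors and has been found in complexes with TCF7L2 protein in intestinal cells.

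TCF7L2 (ENSG00000148737) was listed on the forward strand of chromosome 10, from 112950247 to 113167678. TCF7L1 (ENSG00000152284) was listed on the forward strand of chromosome 2, from 85133392 to 85310387. LEF1 (ENSG00000138795) lay on the reverse strand of chromosome 4, from 108047545 to 108168956. These positions are GRCh38 positions, although the labels name hg19. The 5′ end of the listed LEF1 span overlaps the antisense RNA LEF1-AS1, and the libraries were made with a stranded kit, but whether strand was used in counting was not given in the sources used here.

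Promoter windows from RefSeq (GRCh38.p14, 250 bases before to 50 bases after a transcript start) are shown because the proteins under study, c-JUN and the TCF/LEF factors, read short motifs in such regions. They are the first TCF7L2 start, a start further inside TCF7L2, the TCF7L1 start and a LEF1 start inside its listed span, each printed 5′ to 3′ on the strand of its gene. Capitals mark the TCF/LEF core, searched on both strands as CTTTGAA, or as CTTTGAT, or else as CTTTGTA, or else as CTTTGTT.
TCF7L2, chr10:112949997-112950296, forward strand: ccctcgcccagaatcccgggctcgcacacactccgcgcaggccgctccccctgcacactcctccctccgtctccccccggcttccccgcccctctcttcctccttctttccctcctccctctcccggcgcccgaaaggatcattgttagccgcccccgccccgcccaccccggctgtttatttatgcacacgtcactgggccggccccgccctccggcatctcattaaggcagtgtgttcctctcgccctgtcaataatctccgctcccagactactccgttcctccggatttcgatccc
TCF7L2, chr10:113126383-113126682, forward strand: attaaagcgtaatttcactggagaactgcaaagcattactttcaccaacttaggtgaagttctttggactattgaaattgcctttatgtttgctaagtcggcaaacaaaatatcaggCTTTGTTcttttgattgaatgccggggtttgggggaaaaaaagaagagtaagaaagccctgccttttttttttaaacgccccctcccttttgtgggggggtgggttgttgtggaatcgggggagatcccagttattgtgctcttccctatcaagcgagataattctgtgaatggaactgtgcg
TCF7L1, chr2:85133142-85133441, forward strand: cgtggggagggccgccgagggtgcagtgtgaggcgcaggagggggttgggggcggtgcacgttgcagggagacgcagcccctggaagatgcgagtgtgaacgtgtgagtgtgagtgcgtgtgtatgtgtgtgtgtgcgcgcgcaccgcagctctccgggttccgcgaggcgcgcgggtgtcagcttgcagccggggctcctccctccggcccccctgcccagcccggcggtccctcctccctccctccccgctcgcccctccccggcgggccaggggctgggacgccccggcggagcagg
LEF1, chr4:108166252-108166551, reverse strand: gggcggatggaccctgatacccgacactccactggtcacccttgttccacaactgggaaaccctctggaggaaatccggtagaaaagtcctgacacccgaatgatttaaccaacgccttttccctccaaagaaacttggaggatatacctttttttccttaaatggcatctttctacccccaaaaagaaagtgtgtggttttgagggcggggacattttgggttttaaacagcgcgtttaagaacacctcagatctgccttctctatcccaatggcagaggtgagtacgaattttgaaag
Of these 4 windows, the inner TCF7L2 window held the core once, beginning 133 bases before the start. The core occurred in 13.8% of all 35116 promoter windows of that length. The AP-1 letters TGACTCA or, reversed, TGAGTCA, found in 4.95% of all windows, and the CRE letters TGACGTCA, found in 1.85%, had no match in the 4 windows. Another TCF7L2 window, chr10:113129021-113129320, held none of the 3 motifs. The first TCF7L2 and the TCF7L1 windows were rich in G and C, at 65.7% and 74.3%, against 42.7% in the inner TCF7L2 window and 47% in the LEF1 window.

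The deposited values are whole-number normalized expression values and were not treated as read counts, so depth is unknown. In each of the 12 libraries the lowest value was 11, the median 106 and the highest 9910, so a value says mainly where a gene ranks in its library. Because no scaling by gene length was stated, levels are compared between libraries for 1 gene and not between genes. KO day 30 replicate 2 stood apart, with a median Spearman correlation to the other libraries of 0.745 against 0.830 to 0.934 for the rest. Replicates of the KO groups correlated at 0.821 (day 25) and 0.769 (day 30), against 0.936 to 0.959 in the WT and OE groups. JUN, the targeted gene, read 139 and 153 in WT at day 25, 128 and 162 in WT at day 30, 353 and 196 in the libraries labelled KO at day 25, and 222 and 248 in those labelled KO at day 30. All 4 libraries labelled KO were above all 4 WT libraries in JUN transcript, by 0.77 on the log2 scale (two-sided exact permutation test, p = 0.0286, the smallest p that 4 against 4 allows). Such a lack of overlap, in either direction, was found in 5.88% of all genes. The study, in contrast, reported no c-JUN mRNA by RT-qPCR in knockout neural progenitor and cerebral organoid cultures. It also reported no c-JUN protein in the knockout lines by western blot, and c-JUN protein in those lines once induced with doxycycline. In its ATAC-seq of thalamus organoids at day 25, JUN chromatin was reported as highly accessible in WT and OE and less so in KO. Neither protein nor accessibility is measured by these RNA-seq libraries. OE libraries read 224 and 212 at day 25 and 362 and 202 at day 30. They overlapped the KO libraries in JUN and differed from them by -0.03 on the log2 scale (exact permutation p = 0.886), so the tables do not show more JUN transcript in OE than in KO. KO and OE below are therefore names of labelled libraries, and every direction rests on those labels.

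TCF7L2 varied widely from library to library, and the genotypes overlapped. At day 25 it read 224 and 128 in WT, 256 and 121 in the libraries labelled KO, and 123 and 465 in OE. At day 30 it read 148 and 246 in WT, 341 and 109 in KO, and 272 and 444 in OE. The 2 highest values, 465 and 444, were both OE libraries, but the other OE library of day 25 was lower than every WT library. Over both days the mean was 186.5 ± 57.3 in WT, 206.75 ± 112 in KO and 326 ± 161 in OE (SD, n = 4 each). The order of means was thus WT, KO, OE, and no neighbours in it differed beyond the spread of their libraries. In bulk organoids, fewer cells of a type and less TCF7L2 RNA per cell cannot be told apart.

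TCF7L1 was the steadiest of the 3 genes. At day 25 it read 58 and 46 in WT, 33 and 45 in KO, and 56 and 71 in OE. At day 30 it read 47 and 56 in WT, 64 and 37 in KO, and 57 and 61 in OE. The lowest 3 values, 33, 37 and 45, were all KO libraries, while the fourth KO library, at 64, was above every library but 1. Over both days the mean was 51.75 ± 6.13 in WT, 44.75 ± 13.8 in KO and 61.25 ± 6.85 in OE (SD, n = 4 each), again with overlap between the neighbours KO, WT and OE.

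LEF1 stayed in a narrow range in WT and spread in the other genotypes. It read 128 and 118 in WT at day 25 and 105 in both WT libraries at day 30. KO libraries read 101 and 104 at day 25 and 159 and 54 at day 30, and OE libraries 70 and 188 at day 25 and 120 and 101 at day 30. The lowest value, 54, belonged to KO day 30 replicate 2, the library that stood apart, and the highest, 188, to OE day 25 replicate 2, which also held the highest TCF7L2 value. Means over both days were 114 ± 11.2 in WT, 104.5 ± 42.9 in KO and 119.75 ± 49.9 in OE (SD, n = 4 each), and all 3 overlapped.

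TCF7, which encodes the factor TCF-1 known best from T cells, was listed too and is given for completeness of the family. It read 100 and 66 in WT, 84 and 84 in KO, and 57 and 34 in OE at day 25, and 70 and 42, 31 and 53, and 53 and 34 at day 30. Day 25 values in WT and KO were mostly above the rest. The listed span of TCF7 overlaps the neighbouring gene SKP1.

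**Figure D1:**
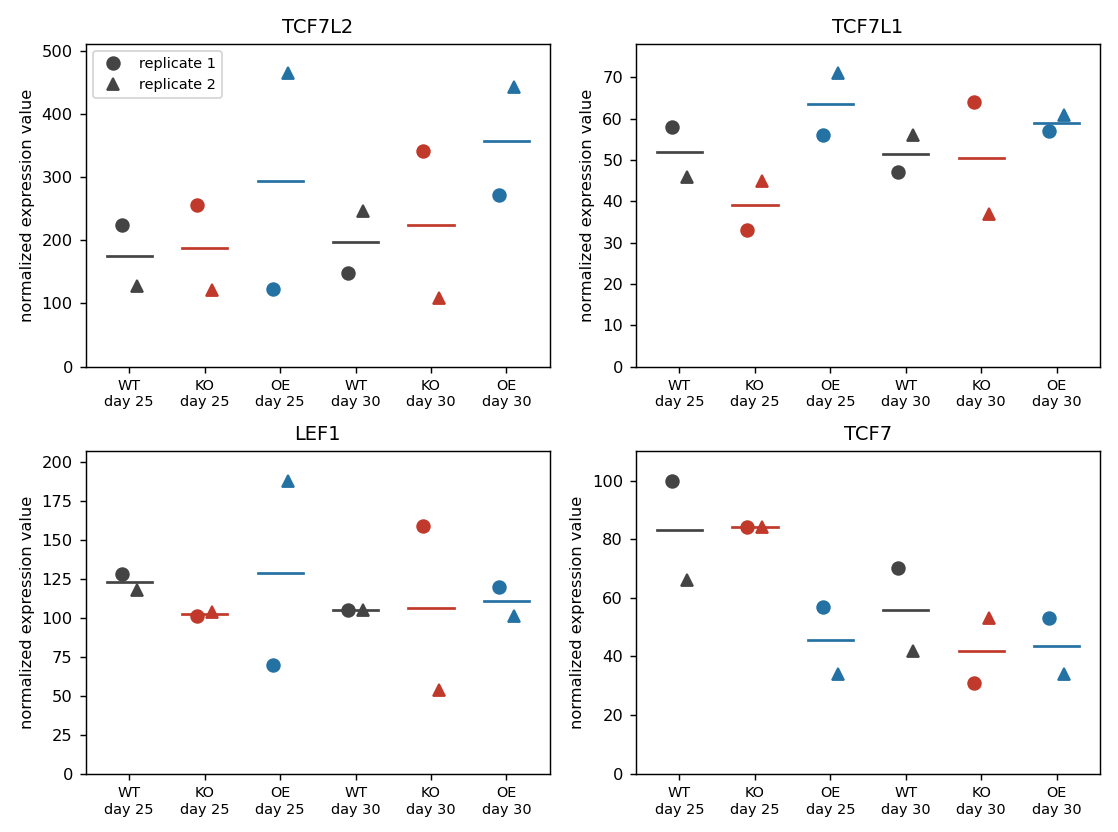
Normalized expression values (y axis, linear, starting at 0, a different range for each gene) of TCF7L2, TCF7L1, LEF1 and TCF7 in the 12 libraries, by genotype and day (x axis). Circles are replicate 1, triangles replicate 2 and bars the mean of the 2 libraries. The OE libraries of day 25 lie at 123 and 465 for TCF7L2 and at 70 and 188 for LEF1, so that 1 group spans most of the range of each gene.

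The first comparison asked whether loss of c-JUN changed the TCF/LEF genes. None of the 3 genes passed the test between KO and WT, taken as a Benjamini-Hochberg adjusted p under 0.05 over all 9497 genes and a 2-fold change in limma. That was 0 of 3 at day 25, where 0.0105% of all genes passed, 0 of 3 at day 30, where 0% passed, and 0 of 3 over both days, where 0.0211% passed. At an unadjusted p under 0.05 the count was also 0 of 3 each time, against 13.4%, 7.36% and 15.2% of all genes. The groups of 4 libraries overlapped for all 3 genes, while 5.88% of genes had no overlap.

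For TCF7L2 the KO libraries differed from WT by 0.04 on the log2 scale over both days (SE 0.47, 95% interval -0.99 to 1.06, limma adjusted p = 0.977). An interval this wide, about 2-fold either way, does not show that TCF7L2 was equal in the 2 genotypes, and its sign turned when WT day 25 replicate 2 (-0.16), WT day 30 replicate 1 (-0.15), KO day 25 replicate 1 (-0.23) or KO day 30 replicate 1 (-0.37) was left out. The difference was 0.06 at day 25 and 0.02 at day 30, and the change of the KO effect from the earlier to the later day was -0.04 (95% interval -2.10 to 2.02). TCF7L1 differed by -0.24 (SE 0.24, 95% interval -0.78 to 0.29, limma adjusted p = 0.642), with -0.41 at day 25 and -0.07 at day 30. Leaving out KO day 30 replicate 1 moved the TCF7L1 value over both days to -0.44 and leaving out KO day 30 replicate 2 to -0.050, while WT day 25 replicate 1 moved it to -0.16 and KO day 25 replicate 1 to -0.13. LEF1 differed by -0.22 (SE 0.35, 95% interval -0.99 to 0.55, limma adjusted p = 0.787), and without KO day 30 replicate 2 the sign turned, to 0.17. Two-sided exact permutation tests on 4 against 4 libraries gave p = 0.943 for TCF7L2, 0.314 for TCF7L1 and 0.6 for LEF1. In the test of whether the KO effect changed between the days, 0 of 3 genes passed in limma and 0 of 3 had an unadjusted p under 0.05, against 0% and 5.63% of all genes.

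The second comparison set the libraries titled as c-JUN re-expression beside the same KO libraries, although JUN transcript did not differ between them beyond their spread. All 3 genes were on average higher in OE than in KO on both days, and none passed the test in limma. The count was 0 of 3 at day 25 (0.274% of all genes passed), 0 of 3 at day 30 (0.0842%) and 0 of 3 over both days (2.22%), and 0 of 3 each time at an unadjusted p under 0.05, against 17.8%, 10.9% and 22.2% of all genes. TCF7L2 differed by 0.64 over both days (SE 0.47, 95% interval -0.38 to 1.67, limma adjusted p = 0.444), with 0.44 at day 25 and 0.85 at day 30. TCF7L1 differed by 0.48 (SE 0.24, 95% interval -0.05 to 1.02, limma adjusted p = 0.267), with 0.70 at day 25 and 0.27 at day 30. LEF1 differed by 0.20 (SE 0.35, 95% interval -0.56 to 0.97, limma adjusted p = 0.769). Exact permutation tests gave p = 0.257 for TCF7L2, 0.114 for TCF7L1 and 0.714 for LEF1. The groups overlapped for all 3 genes, while 9.68% of genes had no overlap.

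Single libraries set the size or the sign of several of these differences. Over both days the TCF7L2 value of 0.64 fell to 0.17 with OE day 25 replicate 2 left out, to 0.23 with KO day 30 replicate 2 left out and to 0.37 with KO day 25 replicate 2 left out, and it reached 1.12 with OE day 25 replicate 1 and 1.05 with KO day 30 replicate 1 left out. The TCF7L2 value at day 30 was 0.027 or 1.66 once replicate 2 or replicate 1 of KO was dropped, and 0.49 once OE day 30 replicate 2 was. TCF7L1 over both days was at 0.29 without KO day 30 replicate 2. TCF7L2 at day 25 was at -0.51 once OE day 25 replicate 2 was left out, and at -0.10 once KO day 25 replicate 2 was. The LEF1 difference at day 25 was -0.54 without OE day 25 replicate 2, and over both days it was -0.15 if that library, or -0.18 if KO day 30 replicate 2, was left out. At day 30 TCF7L1 was at -0.12 without KO day 30 replicate 2.

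OE and WT libraries were also set side by side. Here 0 of 3 genes passed in limma at day 25 (0% of all genes passed), 0 of 3 at day 30 (0.0316%) and 0 of 3 over both days (0.158%), and 0 of 3 had an unadjusted p under 0.05 in any of these, against 4.18%, 4.07% and 8.21% of all genes. TCF7L2 was 0.68 higher in OE over both days (SE 0.47, 95% interval -0.35 to 1.71, limma adjusted p = 0.816, exact permutation p = 0.229). Leaving out OE day 25 replicate 2 brought this to 0.20, and leaving out OE day 25 replicate 1 to 1.16. TCF7L1 was 0.24 higher (95% interval -0.29 to 0.77, exact permutation p = 0.143) and LEF1 differed by -0.01 (95% interval -0.78 to 0.75, exact permutation p = 0.886). All 3 genes overlapped between the groups, and 8.47% of genes did not.

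Between day 25 and day 30, over the 3 genotypes, 0 of 3 genes passed in limma and 0 of 3 had an unadjusted p under 0.05, where 0% and 11.3% of all genes did so. TCF7L2 was 0.28 higher at day 30 (95% interval -0.56 to 1.12), TCF7L1 0.07 higher (95% interval -0.36 to 0.51) and LEF1 differed by -0.14 (95% interval -0.77 to 0.48). Exact permutation tests on 6 against 6 libraries gave p = 0.526, 0.703 and 0.630. The sign turned for TCF7L2 without OE day 25 replicate 1 (-0.04), for TCF7L1 without KO day 30 replicate 1 (-0.05), and for LEF1 without OE day 25 replicate 2 (0.09) or KO day 30 replicate 2 (0.11). TCF7 differed by -0.55 between the days (95% interval -1.08 to -0.03, limma adjusted p = 0.427, exact permutation p = 0.0801).

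**Figure D2:**
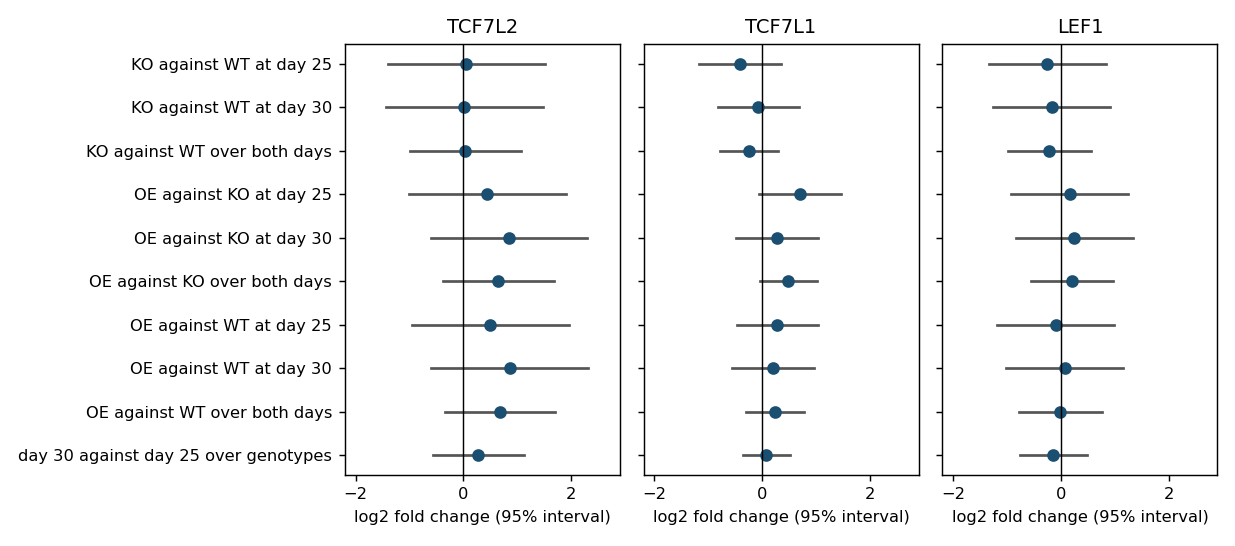
Log2 fold changes of TCF7L2, TCF7L1 and LEF1 (x axis, log2 units, the same range in each panel) for 10 comparisons (y axis). Points are the limma estimates, lines their 95% intervals, and the vertical line marks no difference. Every interval includes 0, and those of TCF7L2 are the widest, with an SE of 0.47 over both days against 0.24 for TCF7L1.

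The balance among the 3 factors was read as log2 ratios within each library, which need no comparison of levels between genes. In WT the LEF1 to TCF7L2 ratio averaged -0.66 ± 0.47, in KO -0.91 ± 0.48 and in OE -1.35 ± 0.56 (SD, n = 4 each). The OE to WT difference of -0.69 in LEF1 to TCF7L2 had an exact permutation p of 0.114, adjusted to 0.661 over the 9 ratio tests. The other 8 tests, over the ratios of LEF1 and TCF7L1 to TCF7L2 and of LEF1 to TCF7L1, gave exact permutation p from 0.343 to 0.886. Every pair of groups overlapped in each ratio.

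TCF7L2 differed more between libraries of 1 group than most genes did. Its residual SD around the 6 group means was 0.87 log2 units, at the 98.8th percentile of all 9497 genes, whose median was 0.33. Among the 971 genes of similar mean value it stood at the 99.1st percentile. LEF1 had a residual SD of 0.61, at the 90.4th percentile, and TCF7L1 one of 0.30, at the 42.1st. Of the variance between the 12 libraries, 75.3% lay within groups for TCF7L2, 92% for LEF1 and 48% for TCF7L1. No share over all genes is given beside these. With only 2 libraries a group, a large part lies within groups even where groups do not differ. These percentiles and shares are descriptions and carry no test.

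**Figure D3:**
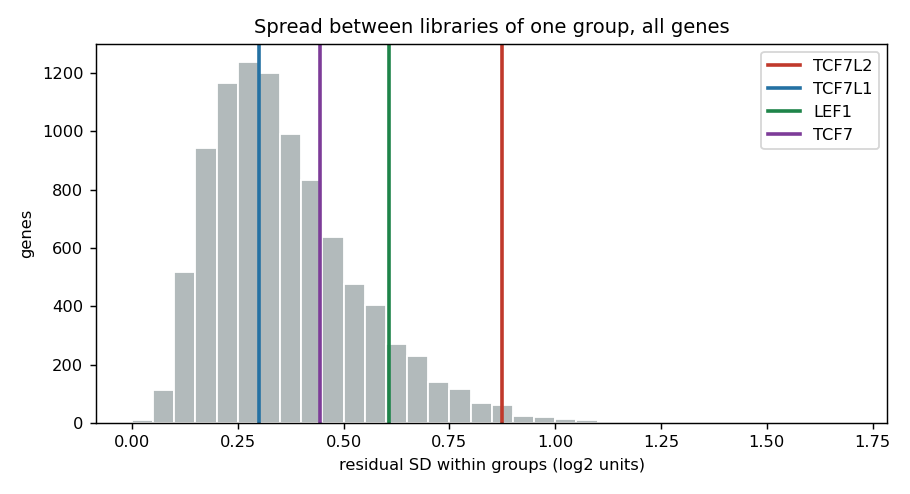
Number of genes (y axis) by residual SD of log2 values between the 2 libraries of a group (x axis), for all 9497 genes. Vertical lines mark the family, with TCF7L1 at 0.30, TCF7 at 0.44, LEF1 at 0.61 and TCF7L2 at 0.87 log2 units, far into the right tail.

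The spread was also seen where the libraries were alike. In OE at day 25 the 2 libraries correlated at 0.958 over all genes and the median gene was 1.15-fold apart, yet TCF7L2 was 3.78-fold apart and LEF1 2.69-fold. Only 0.105% of genes were as far apart as TCF7L2 there, and 0.569% as far as LEF1. In WT the TCF7L2 replicates were 1.75-fold apart at day 25 and 1.66-fold at day 30, which 8.79% and 5.73% of genes reached. In KO at day 30 they were 3.13-fold apart, but there 6.03% of genes were at least as far apart, and the median gene was 1.44-fold apart. TCF7L2 was higher in replicate 1 of 3 groups and in replicate 2 of the other 3, so the difference did not go with the replicate number.

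The 9 genes that were further apart than TCF7L2 in OE at day 25 were named after their values were seen. IRX2, an Iroquois homeobox gene, read 34 in replicate 1 and 150 in replicate 2, and POU4F1, a transcription factor of habenula neurons, read 58 and 232. SHOX2, a homeobox gene, read 22 and 152, and CYP1B1, a cytochrome P450, read 51 and 238. All 4 were higher in the library where TCF7L2 was high. SOST, SLC45A3 and FREM1 were higher there too, whereas ADAMTS9, an extracellular protease, read 114 and 16, and GPC3, a glypican, read 106 and 28.

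Of 20 caudal thalamus markers that were looked up, 9 were listed. Besides TCF7L2 they were LHX9, PROX1, NEUROG1, IRX2, IRX3, SLC17A6, NTNG1 and CDH6. GBX2, OLIG3 and FOXP2, which were also among the 20 looked up, were not listed. The summed value of the 9 markers ranged from 1002 to 1160 in WT, 1186 to 1515 in KO and 775 to 1631 in OE. Such a sum is led by genes of high value, such as CDH6 in KO, and does not measure thalamic identity. None of the 8 telencephalic markers was listed, and 2 of the 15 prethalamic and hypothalamic ones were. An unlisted marker does not show that its cell type was absent, since GBX2, OLIG3 and FOXP2 were unlisted too. Habenular, pretectal and rostral thalamic markers were listed for 10 of 17, neuronal ones for 17 of 18, and roof plate and choroid plexus ones for 15 of 20.

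TCF7L2 ran with LHX9 and the Iroquois genes across libraries. LHX9, a LIM homeobox gene of caudal thalamic neurons, read 200 and 190 in WT, 352 and 210 in KO and 148 and 484 in OE at day 25. At day 30 it read 309 and 330 in WT, 297 and 118 in KO and 220 and 462 in OE. Its replicates moved in the same direction as those of TCF7L2 in 6 of 6 groups. Over the 12 libraries, Pearson's r of log2 values between TCF7L2 and LHX9 was 0.83 and Spearman's rho 0.83, higher than for 99.9% of all genes. It was 0.80 without KO day 30 replicate 2, 0.73 without the 2 libraries farthest from the median, and 0.93 after group means were taken out.

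IRX2 read 52 and 22 in WT, 103 and 70 in KO and 34 and 150 in OE at day 25, and 28 and 93, 94 and 60, and 74 and 82 at day 30. It too moved with TCF7L2 in 6 of 6 groups (r = 0.73, rho = 0.72, r = 0.72 without the 2 farthest libraries). IRX3 read 38 and 45, 76 and 14, and 38 and 108 at day 25, and 28 and 70, 67 and 22, and 42 and 52 at day 30, and moved with TCF7L2 in 5 of 6 groups (r = 0.78, rho = 0.80, r = 0.65 without the 2 farthest). These are 12 points from organoid pools that share their line, protocol and scaling, and the correlations are descriptions.

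The other markers had lower correlations with TCF7L2. PROX1, a homeobox gene of several thalamic and prethalamic cell groups, had r = 0.53 and rho = 0.60, with r = 0.64 after group means were taken out and 0.31 without the 2 farthest libraries, and moved with TCF7L2 in 4 of 6 groups. The proneural gene NEUROG1, which marks caudal thalamic progenitors, had r = 0.28 and rho = 0.20, and moved with TCF7L2 in 4 of 6 groups. Its r was 0.61 after group means were taken out, 0.08 without KO day 30 replicate 2 and 0.04 without the 2 farthest libraries. SLC17A6, the vesicular glutamate transporter of thalamic neurons, had r = 0.27. NTNG1, netrin G1 of thalamic axons, had r = -0.33, and the cadherin CDH6 r = -0.54. JUN itself had r = 0.22 with TCF7L2, -0.24 with TCF7L1 and -0.14 with LEF1.

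CDH6 was the 1 of 9 markers that passed the test between OE and KO over both days, where 2.22% of all genes passed. It read 380 and 640 in KO at day 25 and 466 and 640 at day 30, against 139 and 154, and 207 and 80, in OE. All 4 OE libraries were below all 4 KO libraries, a lack of overlap that 9.68% of genes had in either direction, by -1.91 on the log2 scale (SE 0.31, limma adjusted p = 0.0147). WT libraries overlapped both, at 368, 396, 272 and 132. The adjusted p of CDH6 rose above 0.05 without OE day 25 replicate 1 (0.0544), OE day 25 replicate 2 (0.0547) or OE day 30 replicate 2 (0.0512), and ranged from 0.00463 to 0.0747 over all alternatives. Against WT no marker of the list passed in limma for KO over both days, and at an unadjusted p under 0.05 there were 2, beside 15.2% of all genes, NEUROG1, at -0.72 (adjusted p = 0.275), and CDH6, at 0.95 (adjusted p = 0.221). LHX9 differed by -0.14 between KO and WT (95% interval -1.01 to 0.72), IRX2 by 0.92 (95% interval -0.16 to 2.00) and IRX3 by -0.26 (95% interval -1.47 to 0.95).

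**Figure D4:**
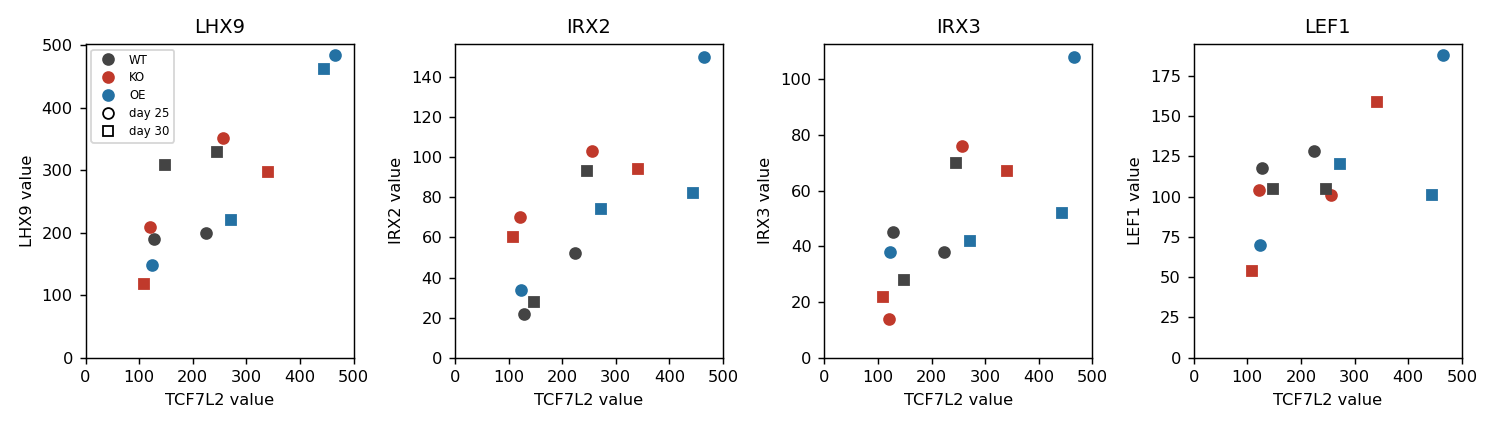
Normalized expression value of TCF7L2 (x axis) against that of LHX9, IRX2, IRX3 and LEF1 (y axes, linear) in the 12 libraries. Colours give the genotype, circles day 25 and squares day 30. TCF7L2 ranges from 128 to 246 in WT, 109 to 341 in KO and 123 to 465 in OE, so its highest values are not in WT. LHX9 rises along with TCF7L2, from 118 and 109 in KO day 30 replicate 2 to 484 and 465 in OE day 25 replicate 2.

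Among the 3 genes themselves, TCF7L2 and LEF1 had r = 0.68 (rho = 0.57), TCF7L2 and TCF7L1 r = 0.61 (rho = 0.74), and TCF7L1 and LEF1 r = 0.61 (rho = 0.67). Without the 2 libraries farthest from the median these were 0.44, 0.38 and 0.52. TCF7L2 and LEF1 moved together between replicates in 3 of 6 groups, with a tie of LEF1 in another, TCF7L2 and TCF7L1 in 5 of 6, and TCF7L1 and LEF1 in 4 of 6. TCF7 went the other way, with r = -0.61 to both TCF7L2 and TCF7L1 and -0.27 to LEF1.

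A search over all 9497 genes named those whose log2 values were most like each gene over the 12 libraries. A high r follows from picking the top few of so many genes, and these values only describe the genes picked. For TCF7L2 they were SPAG9, a scaffold of JNK signalling (r = 0.89), DOP1B (0.88), the nucleoporin NUP58 (0.87), the Wnt ligand WNT3 (0.86) and RTF2 (0.84). WNT3 read 113 and 80 in WT, 136 and 48 in KO and 58 and 170 in OE at day 25, and 54 and 124, 102 and 36, and 94 and 110 at day 30. Its replicates moved in the direction of TCF7L2 in every one of the 6 groups. WNT3 had r = 0.83 without KO day 30 replicate 2. Both follow in part from its having been picked for its r over these libraries, and neither is separate support. Most unlike TCF7L2 were the vitamin transporter SLC5A6 (r = -0.89), the heparan sulfate polymerase EXT1 (-0.87) and the amino acid transporter subunit SLC3A2 (-0.87). SLC5A6 was highest, at 501 and 471, in the replicate 2 libraries of KO, where TCF7L2 was at 121 and 109.

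For TCF7L1 the most similar genes were KLHL28 and CDCA7 (r = 0.93 each), ARHGAP21, PRRT2 and DDX39A (0.91 each). CDCA7, a gene of cycling cells, read 34 and 48 in KO at day 25 and 66 and 38 in KO at day 30. That is the order of TCF7L1, at 33, 45, 64 and 37, and follows in part from picking CDCA7 by its r. ALDH5A1 (r = -0.93), TRANK1 (-0.92) and PDIA3 (-0.89) were the most unlike. For LEF1 they were the forkhead gene FOXP4 (r = 0.86), NR1D2 (0.85), MAP7D1 (0.84) and NEDD1 (0.81), and the most unlike were FAM171A2 (-0.94), NDOR1 (-0.86) and BICDL1 (-0.81). The likeness of FOXP4 to LEF1 dropped to 0.74 without KO day 30 replicate 2. With r over 0.8 there were 15 genes for TCF7L2, 124 for TCF7L1 and 8 for LEF1.

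The pathway around the 3 genes was read from 3 lists. Of 32 coactivators and corepressors, 28 were listed. Their median log2 change was -0.17 for KO against WT over both days, beside -0.02 over all genes, and 0.17 for OE against KO, beside 0.01. None passed in limma between KO and WT over both days, and 2 were higher and 4 lower at an unadjusted p under 0.05, where 7.01% and 8.16% of all genes were. Between OE and KO over both days 1 of 28 passed, near the 2.22% of all genes that did. It was the corepressor TLE3, which binds TCF/LEF factors. TLE3 read 80, 99, 169 and 89 in KO and 280, 267, 180 and 234 in OE. All 4 OE libraries were above all KO libraries, a lack of overlap that 9.68% of genes had, by 1.17 on the log2 scale (SE 0.22, limma adjusted p = 0.0227). Without KO day 30 replicate 2 the difference was 0.94, under the 2-fold limit, and leaving out 1 of the 2 OE libraries of day 25 raised the adjusted p to 0.0789 or 0.0938, and leaving out OE day 30 replicate 2 to 0.133, in a range of 0.00146 to 0.133 over all alternatives. WT libraries read 167, 150, 130 and 180.

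At day 25 the histone deacetylase HDAC2 was the 1 of 28 in this list that passed, where 0.274% of all genes did. It read 342 and 272 in KO and 619 and 689 in OE, a log2 difference of 1.10 (SE 0.18, limma adjusted p = 0.0439). In WT at day 25 it read 496 and 619. The adjusted p rose above 0.05 when any of KO replicate 2, OE replicate 1 or OE replicate 2 of that day was left out, at 0.0567, 0.240 and 0.287, and ranged from 0.0275 to 0.287 over all alternatives.

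Of 23 genes of the beta-catenin destruction complex and its regulators 21 were listed, and none passed in any comparison in limma. At an unadjusted p under 0.05 for KO against WT over both days, 1 was higher and 4 were lower, where 7.01% and 8.16% of all genes were. The largest differences there were in the APC-binding protein AMER1, at -0.69 (adjusted p = 0.230), the scaffold AXIN1, at -0.56 (adjusted p = 0.270), and the ubiquitin ligase SIAH1, at -0.47 (adjusted p = 0.269). The median of the list was -0.05, beside -0.02 over all genes.

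Of 33 reported TCF/LEF target genes, 22 were listed. For KO against WT over both days 0 passed in limma, with 3 higher and 4 lower at an unadjusted p under 0.05 (7.01% and 8.16% of all genes) and a median of -0.09, beside -0.02 over all genes. For OE against KO over both days 1 was higher and 2 were lower of the 22, where 2.22% of all genes passed in either direction. EPHB2, an ephrin receptor, read 237, 188, 290 and 197 in KO and 427, 732, 396 and 562 in OE, a log2 difference of 1.19 (SE 0.22, adjusted p = 0.0212 in limma). Leaving out OE day 25 replicate 2 raised the adjusted p to 0.0938, leaving out KO day 30 replicate 2 to 0.0590 and leaving out OE day 30 replicate 2 to 0.117, in a range of 0.00427 to 0.117 over all alternatives. From WT, EPHB2 differed in KO by -0.78 at day 25 and -0.44 at day 30, and in OE by 0.58 over both days. None of these differences from WT passed in limma.

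APCDD1, a Wnt inhibitor at the cell surface, read 1156, 576, 1602 and 1602 in KO and 178, 342, 440 and 342 in OE, a log2 difference of -1.88 (SE 0.27, adjusted p = 0.00941 in limma). WT libraries read 1042, 556, 895 and 820. Leaving out OE day 30 replicate 2 gave APCDD1 an adjusted p of 0.0512, the highest of its range from 0.00392. MSX1, a homeobox gene of the roof plate, read 484, 732, 310 and 528 in KO and 135, 116, 438 and 140 in OE, a log2 difference of -1.47 (SE 0.34, adjusted p = 0.0424 in limma). From WT, MSX1 differed in KO by 1.99 at day 25 and 1.43 at day 30, and in OE by 0.23 over both days. None of these differences from WT passed in limma. Leaving out 1 of the 2 OE libraries of day 25 raised the adjusted p of MSX1 to 0.102 or 0.163, leaving out replicate 2 of KO raised it to 0.0905 (day 25) or 0.125 (day 30), and leaving out OE day 30 replicate 2 to 0.158, in a range of 0.0122 to 0.175 over all alternatives. APCDD1 and EPHB2 did not overlap between KO and OE, like 9.68% of all genes, and MSX1 did. The 2 that fell, a feedback inhibitor and a roof plate gene, and the receptor that rose do not move in 1 direction. Summed roof plate and choroid plexus markers, a list that also holds MSX1, ranged from 5018 to 8530 in KO, 3285 to 6058 in OE and 3898 to 6628 in WT. Summed neural progenitor markers ranged from 5432 to 9365 in KO, 9435 to 11323 in OE and 8421 to 16473 in WT. For both lists the WT range overlapped those of KO and OE, and the sums were not tested. The part of these cell types in the results on TLE3, EPHB2, APCDD1, MSX1 and CDH6 was not tested.

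**Figure D5:**
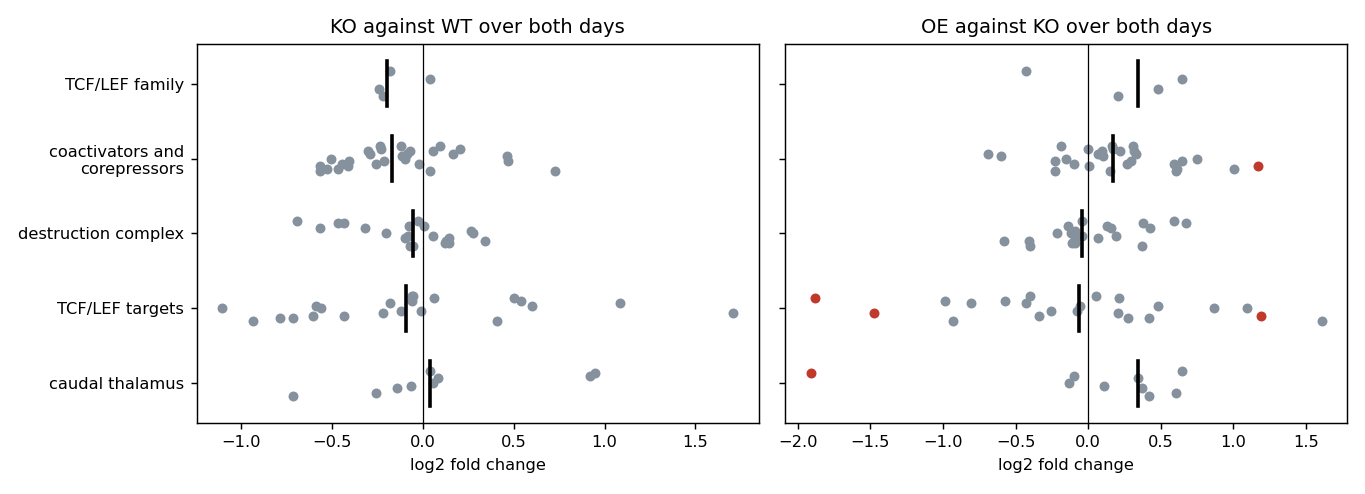
Log2 fold changes (x axis, log2 units, a different range in each panel) of the listed genes of the TCF/LEF family and 4 gene lists (y axis) for KO against WT and OE against KO over both days. Each point is a gene, red where it passed the limma test, and black bars are list medians. No gene is red for KO against WT, and 5 are red for OE against KO, TLE3, EPHB2, APCDD1, MSX1 and CDH6.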

How the data were processed

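The deposited RNA-seq tables hold a score for each gene, a normalized expression value given as a whole number; at 66.4% of ranks the sorted values of the 12 libraries lay within 2% of each other. The submitters' processing notes name bcl2fastq, Bowtie2, RSEM and the build hg19. The scaling was not given in the sources used here, depth is unknown, and no count test was run. The 9 ATAC-seq and 2 CUT&Tag samples were not analysed here.

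Values were put on a scale of log2(value + 1), so a fold change understates that of low genes. limma 3.58.1 in R 4.3.3 was fitted to all 9497 genes with 1 mean for each of 6 groups and an intensity trend, and p-values were adjusted by Benjamini and Hochberg over all genes. A gene passed at an adjusted p under 0.05 and 2-fold, and the KO effect by day at an adjusted p under 0.05 alone. The filter of at least 1 in at least 2 libraries removed 0 genes. Two-sided exact permutation tests over libraries (scipy 1.17.1) were run for single genes and ratios. Comparisons that share a genotype share its libraries and are not independent. The fit was tested on simulated data.

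The 3 genes and the gene lists were chosen with earlier results of these data known. Named were the 3 genes with TCF7, JUN as the targeted gene, the listed genes of each pathway list that passed (else the 3 with the largest KO to WT change), the listed caudal thalamus markers, and, for each of the 3 genes, the 5 most and 3 least correlated genes, of which 1 is not reported here. Markers of midbrain and hindbrain (2 of 11), mesenchyme (3 of 12), glia and vessel (1 of 12) and pluripotency (2 of 7) were also looked up. Alternatives were other pseudocounts (0.1 and 5), filters, median centring, quantile normalization, library weights, no trend, the compared libraries alone, other thresholds, a replicate block and leaving out each library.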

Additional observations from a re-analysis of the deposited data

How the results depend on the processing

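None of TCF7L2, TCF7L1 and LEF1 passed the test in any of the 11 comparisons under any of the 199 alternatives computed. No fold change of theirs turned sign under the 393 that left out no single library. Most of these, such as other thresholds, no trend or the replicate block, cannot move a fold change. That count therefore does not show stability. Leaving out 1 library turned the sign in 35 of 204 cases, where the remaining library of its group is taken to vary like the other groups. TCF7L2 ranged, in log2 units, over -0.48 to 0.59 for KO against WT at day 25, -0.80 to 0.83 for KO against WT at day 30, -0.37 to 0.44 for KO against WT over both days, -0.51 to 1.40 for OE against KO at day 25, -0.46 to 1.45 for OE against WT at day 25, -0.039 to 0.60 between the days, -0.86 to 0.78 in the KO effect by day. TCF7L1 ranged, in log2 units, over -0.46 to 0.31 for KO against WT at day 30, -0.12 to 0.66 for OE against KO at day 30, -0.054 to 0.20 between the days, -0.048 to 0.73 in the KO effect by day. LEF1 ranged, in log2 units, over -0.95 to 0.59 for KO against WT at day 30, -0.60 to 0.17 for KO against WT over both days, -0.54 to 0.87 for OE against KO at day 25, -0.53 to 1.01 for OE against KO at day 30, -0.18 to 0.59 for OE against KO over both days, -0.80 to 0.61 for OE against WT at day 25, -0.055 to 0.19 for OE against WT at day 30, -0.37 to 0.34 for OE against WT over both days, -0.40 to 0.11 between the days, -0.69 to 0.85 in the KO effect by day. Of the ratios, TCF7L1 to TCF7L2 ranged over -0.50 to 0.0057 for KO against WT, TCF7L1 to TCF7L2 ranged over -0.53 to 0.059 for OE against KO, LEF1 to TCF7L1 ranged over -0.12 to 0.23 for KO against WT.
Replicate numbers did not pair the libraries, since replicate differences correlated from -0.214 to 0.262 over 15 pairs of groups, above 0.1 in 1. With the replicate number as a block, 0 of 3 genes passed in each comparison. The block cannot move a fold change here, because each group holds 1 library of each replicate number. The TCF7L2 differences of 0.04 between KO and WT and 0.64 between OE and KO over both days were therefore the same by design. The block raised the adjusted p of HDAC2 to 0.0672 and that of MSX1 to 0.0556. Of 116 alternatives for the 6 named list genes, 34 lost the call and none changed direction; the libraries compared alone and library weights were among them. Depth is unknown, and 2 libraries a group limit precision.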
